A study of Bos taurus with 6 samples.

Results

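The peroxiredoxin, thioredoxin and superoxide dismutase genes are described here in day 7 bovine blastocysts: PRDX1 to PRDX6, the thioredoxin gene TXN, the thioredoxin reductase gene TXNRD1, and SOD1 and SOD2. They were chosen as a named family, and all 10 carried a symbol on the array, with 14 of the 24016 probe sets tested. PRDX6 had 4 probe sets, PRDX3 had 2 and the other genes 1 each. RNA from whole blastocysts was read on 6 Affymetrix bovine arrays. In the superovulated group (3 arrays), embryos stayed in superovulated Simmental heifers until day 7. In the synchronized group (3 arrays), embryos were flushed on day 2, at the 2-cell stage, from heifers superovulated in the same way, were transferred by endoscope to recipients given synchronization alone, and were recovered on day 7. All embryos thus came from superovulated, artificially inseminated donors, 18 heifers in all, of which 9 were flushed on day 2, and the groups differ in transfer as well as in the tract. The comparison asks how the oviductal environment bears on the transcripts of the embryo. No label ties an array to its own animals or flushing, so p-values measure only the spread between arrays, which may be technical.

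Superoxide is a by-product of respiration. Superoxide dismutases turn it into hydrogen peroxide, with the copper and zinc enzyme SOD1 in the cytosol and the manganese enzyme SOD2 in the mitochondrial matrix. Peroxiredoxins reduce peroxide through a reactive cysteine, and most of them are restored by thioredoxin, which thioredoxin reductase recharges with electrons from NADPH. Preimplantation embryos are sensitive to oxidative stress, and bovine blastocysts are known to express these enzymes.

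Signals are given as deposited, in log2. Differences are the superovulated mean minus the synchronized mean, and each group value is a mean ± SD (n = 3). A call is an adjusted p under 0.05 in limma, adjusted by Benjamini-Hochberg over all 24016 probe sets. Probe sets above log2 4 numbered 1457 to 1894 per superovulated array and 973 to 1850 per synchronized array, and signals under log2 4 lie near background. Signal was stronger at the 3′ end of a transcript, since the GAPDH control at the 3′ end exceeded the one at the 5′ end by 6.04 to 6.18 on the superovulated arrays and by 4.57 to 5.75 on the synchronized arrays. The 5′ control lay near background, at 2.62 to 3.03 and 2.60 to 2.63. These gaps thus mostly follow the 3′ signal and do not compare RNA quality between the groups. A group mean above log2 4 was reached by 6 of the 14 member probe sets, 1 each for PRDX1, PRDX2, PRDX5, PRDX6, TXN and SOD2. The other 4 genes, SOD1, TXNRD1, PRDX3 and PRDX4, had no such probe set.

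PRDX1 was higher in blastocysts from superovulated heifers, and it was the only member that passed the test. PRDX2, PRDX5 and TXN also lay higher on all 3 superovulated arrays than on any synchronized array, without a call. SOD2 and the brightest PRDX6 probe set overlapped between the groups, with the widest spread among the synchronized arrays. Of the 14 member probe sets 1 was called higher and 0 lower, against 0.695% of all probe sets called higher and 0.0208% called lower. At an unadjusted p under 0.05, 4 were higher and 0 lower, against backgrounds of 4.56% and 2.09%. Groups did not overlap in 4 member probe sets, all higher, against 5.42% of all probe sets higher and 7.89% lower without overlap. Among the 1406 whose mean exceeded log2 4 the share that was higher without overlap was 42.5%. The median difference was 0.15 over the 14 member probe sets, -0.02 over all probe sets and 0.59 over those with a mean above log2 4.

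**Figure D1:**
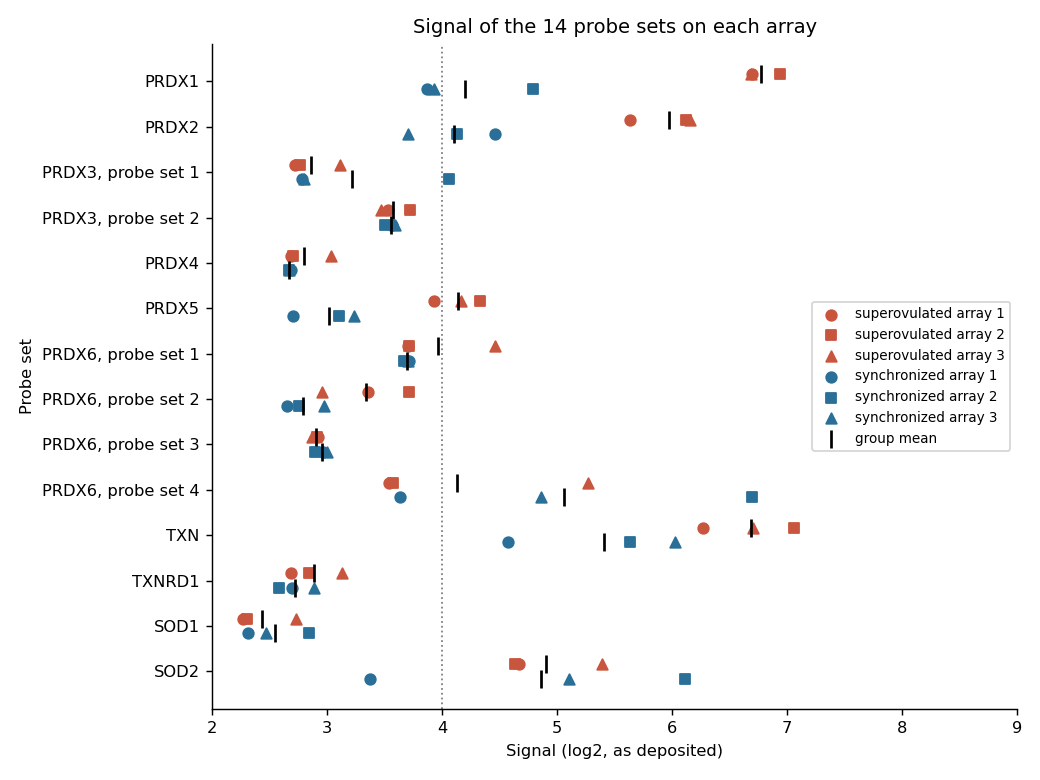
Signal (log2, as deposited) of each of the 14 member probe sets on the 3 superovulated arrays (red) and 3 synchronized arrays (blue), with group means as black ticks and a dotted line at log2 4. PRDX1, PRDX2, PRDX5 and TXN separate by group, whereas SOD2 and probe set 4 of PRDX6 spread over all arrays.

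PRDX1, an abundant peroxiredoxin of the cytosol and nucleus, had signals of 6.69, 6.94 and 6.68 on superovulated arrays 1 to 3, against 3.87, 4.79 and 3.93 on synchronized arrays 1 to 3. Values of the other genes follow the same order of arrays. Every superovulated array was at least 1.89 above every synchronized one, and the superovulated arrays lay within 0.26 of each other. PRDX1 rose by 2.57 (95% interval 1.86 to 3.29, limma adjusted p = 0.0433), or 5.95-fold (3.62 to 9.78), from 4.20 ± 0.51 to 6.77 ± 0.15. The call sits close to the threshold. It was lost when any array other than synchronized array 2 was left out, at adjusted p between 0.123 and 0.169, with differences of 2.41 to 2.62; without synchronized array 2 it was kept (2.87, adjusted p = 0.0167). Without both superovulated array 3 and synchronized array 2 the difference was 2.92 (adjusted p = 0.108). On ranks within each array, which a shift of a whole array cannot alter, PRDX1 exceeded 98.7% to 99.0% of probe sets on the superovulated arrays and 94.6% to 95.7% on the synchronized arrays.

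PRDX2, a cytosolic peroxiredoxin best known from red blood cells, measured 5.63, 6.12 and 6.15 in the superovulated group, against 4.46, 4.13 and 3.70 in the synchronized group. The groups did not overlap, with a gap of 1.17 between the nearest arrays. On ranks within each array the groups nearly met. PRDX2 exceeded 98.0%, 98.3% and 98.2% of probe sets in the superovulated group, against 97.7%, 93.0% and 92.2% in the synchronized group. The difference was 1.87 (95% interval 1.23 to 2.51), 3.66-fold, with adjusted p = 0.0684 in limma. After a second quantile normalization it was 1.26 (adjusted p = 0.751). Of the blood list 10 of 14 genes were measured, 0 averaged above log2 4 and 0 were called. HBG, a fetal haemoglobin chain, was dim in both groups and higher in the superovulated one, at 3.59, 4.24 and 3.42 against 2.96, 2.39 and 2.10 per array, a log2 difference of 1.27 without overlap that was not called (limma adjusted p = 0.359). HBM, another globin gene, lay the other way, at 2.62, 2.70 and 2.69 against 4.60, 2.70 and 3.49 (difference -0.93, limma adjusted p = 0.636). The blood list's summed signal ran from 27.60 to 28.65 on the superovulated and from 26.77 to 29.50 on the synchronized arrays. HBB and HBA, which encode adult haemoglobin chains, averaged 3.05 and 2.68 in the superovulated group, 2.98 and 2.78 in the synchronized group, and ALAS2, the erythroid enzyme of haem synthesis, 2.71 on both.

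PRDX5, found in mitochondria, peroxisomes and cytosol, measured 3.93, 4.33 and 4.16 in the superovulated group, against 2.70, 3.10 and 3.23 in the synchronized group. It stood just above background in the first group and within background in the second, with a gap of 0.70. The difference was 1.13 (95% interval 0.67 to 1.59, adjusted p = 0.102 in limma), and its size is uncertain because GCRMA compresses low signals. PRDX1, PRDX2 and PRDX5 also passed a looser rule of adjusted p under 0.3 with at least 2-fold, which 1.79% of all probe sets passed upward and 0.104% downward.

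TXN, the small cytosolic protein that returns most peroxiredoxins to their reduced form, measured 6.27, 7.06 and 6.70 in the superovulated group, against 4.57, 5.63 and 6.02 in the synchronized group. The gap between the groups was 0.25, smaller than the spread of the synchronized arrays. The difference of 1.27 (95% interval 0.14 to 2.40) passed an unadjusted p of 0.05 but not the adjustment (adjusted p = 0.636 in limma). It was 0.46 (95% interval -0.60 to 1.52) after a second quantile normalization. With array weights it was 1.99, in a fit where superovulated array 2, its highest, had by far the largest weight. On ranks within each array the groups met: TXN exceeded 98.6%, 99.1% and 98.7% of probe sets in the superovulated group, against 98.0%, 97.6% and 99.1% in the synchronized group. TXNRD1, the cytosolic reductase that recharges thioredoxin, stayed between 2.58 and 3.13 on all arrays, near background. Its difference of 0.17 (95% interval -0.20 to 0.53) did not pass, and such a signal gives no usable level.

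**Figure D2:**
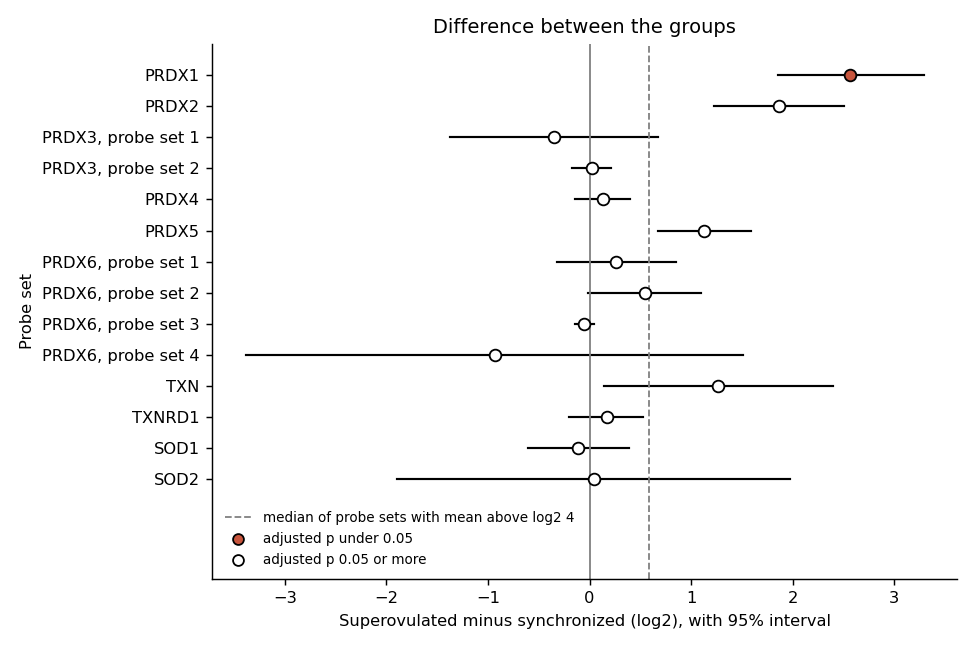
Difference between the groups (superovulated minus synchronized, log2) for each member probe set, with 95% intervals from limma; the filled point has an adjusted p under 0.05 and the dashed line is the median, 0.59, of probe sets with a mean above log2 4. PRDX1, PRDX2 and PRDX5 have intervals wholly above that line, and PRDX6 probe set 4 and SOD2 have the widest intervals.

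The mitochondrial superoxide dismutase SOD2 did not separate the groups. It measured 4.67, 4.63 and 5.39 in the superovulated group, against 3.37, 6.11 and 5.10 in the synchronized group. The synchronized arrays thus held both its lowest and its highest value, 2.74 apart. The difference was 0.04 with a 95% interval from -1.90 to 1.97 (adjusted p = 0.98 in limma), so a change of 2-fold in either direction lies inside the interval. SOD1 read 2.27, 2.30 and 2.73, against 2.31, 2.84 and 2.47. These values lie at background, so the array gave no usable level for SOD1, and the difference of -0.11 (95% interval -0.61 to 0.39) did not pass.

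PRDX6, a peroxiredoxin that uses glutathione in place of thioredoxin and also acts as a phospholipase, gave unlike values on its 4 probe sets, numbered in the order of the deposited table. Probe set 4 measured 3.54, 3.57 and 5.27 in the superovulated group, against 3.63, 6.69 and 4.86 in the synchronized group. Its difference of -0.93 (95% interval -3.38 to 1.51, adjusted p = 0.643 in limma) was smaller than the 3.06 that its synchronized arrays spanned. It was -0.12 without synchronized array 2 and -1.65 without synchronized array 1, and leaving out any of the other 4 arrays gave values between these. By Affymetrix naming, the suffix _s of this probe set marks probes that can match more than one gene's transcripts, so its signal may not be PRDX6 alone. Probe set 2 read 3.35, 3.71 and 2.95, then 2.65, 2.75 and 2.97, with a difference of 0.55 (95% interval -0.01 to 1.10). Probe set 1 stayed between 3.67 and 3.71 except on superovulated array 3, at 4.46, and probe set 3 between 2.87 and 3.0 on all arrays. No single direction can be given for PRDX6.

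PRDX3 is the peroxiredoxin of the mitochondrial matrix. Its probe set 1 measured 2.72, 2.76 and 3.11 in the superovulated group, against 2.78, 4.06 and 2.80 in the synchronized group, so only synchronized array 2 exceeded log2 4. Its probe set 2 stayed between 3.47 and 3.72. Their differences were -0.35 and 0.02, neither with a call. PRDX4, the peroxiredoxin of the endoplasmic reticulum, stayed between 2.67 and 3.03 and differed by 0.13 (95% interval -0.14 to 0.40).

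A pair of patterns across arrays recurred among the members, while PRDX4, TXNRD1, PRDX3 probe set 2 and PRDX6 probe sets 1 to 3 showed neither. PRDX1, PRDX2, PRDX5 and TXN were ordered by group. SOD2, SOD1, PRDX6 probe set 4 and PRDX3 probe set 1 were highest on synchronized array 2, then superovulated array 3, then synchronized array 3. That order was picked out after the values were seen. It held in 4 of 14 member probe sets, 28.6%, and in 2.65% of all probe sets. Among those with a mean above log2 4 it held in 13.8%. In a looser form, synchronized array 2 and superovulated array 3 need only exceed the other 4 arrays. That form held in 28.6% of member probe sets, 6.89% of all and 28.4% of those with a mean above log2 4. The member share was thus close to that of probe sets with such a mean. Of the 4 member probe sets, 2, SOD1 and PRDX3, lay mostly near background. The full order was also that of the summed signal of the oocyte list (7 of 10 genes measured, 2 with a mean above log2 4). The sum was 32.41, 27.26 and 23.20 on those arrays and 20.53 to 22.46 on the others. Within that list the oocyte import factor KPNA7, at 9.02, 7.78 and 6.11 on those arrays, had the order, as did ZP2 and ZP4. ZP3, GDF9, BMP15 and NLRP5 did not have it and stayed under log2 4 on every array. On synchronized array 2 and superovulated array 3 the summed signal of the cumulus and granulosa list (12 genes, all measured, 2 with a mean above log2 4) was also highest, at 48.95 and 45.30, against 37.01 to 40.87 on the others. Those 2 genes were TNFAIP6 and INHA, neither called. TNFAIP6 read 3.05, 2.99 and 7.38 against 4.25, 8.47 and 5.96 (difference -1.75). INHA read 4.79, 4.85 and 6.64 against 4.85, 6.79 and 4.87 (difference -0.08). The list's 1 call, COL1A2, was 0.66 higher in the superovulated group and under log2 4 on every array (limma adjusted p = 0.0316). In such bulk samples fewer cells of a type and less RNA per cell cannot be told apart, and the part of these markers in the SOD2 and PRDX6 values was not tested.

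**Figure D3:**
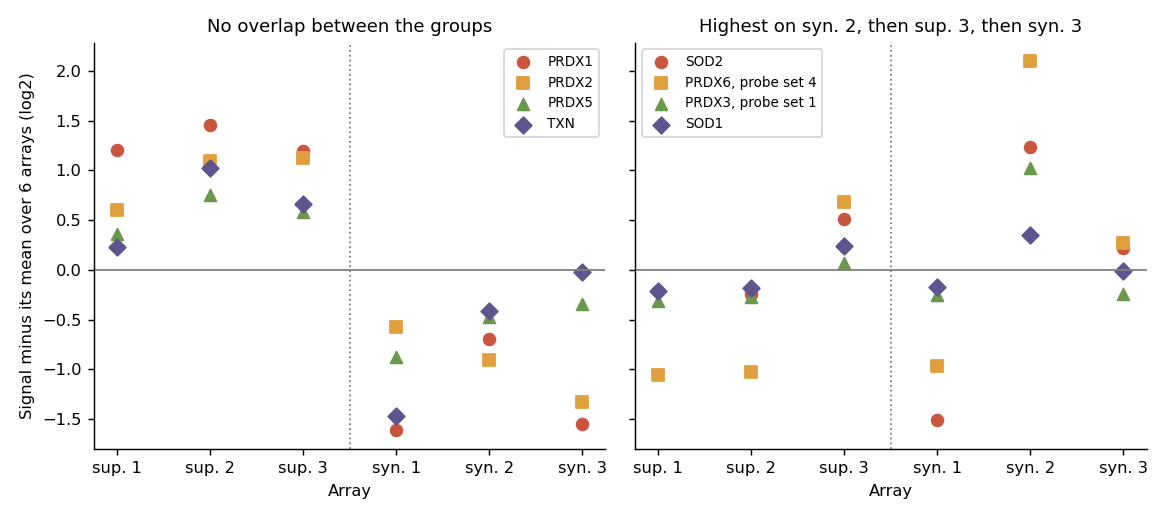
Signal of each probe set minus its own mean over the 6 arrays (log2). Left, PRDX1, PRDX2, PRDX5 and TXN, above their mean on the superovulated arrays (sup.) and below it on the synchronized arrays (syn.); right, SOD2, PRDX6 probe set 4, PRDX3 probe set 1 and SOD1, highest on synchronized array 2.

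Synchronized array 2 held 1850 probe sets above log2 4, within the range of the superovulated arrays. Against that array alone the superovulated means were higher by 1.98 for PRDX1, 1.84 for PRDX2, 1.04 for PRDX5 and 1.05 for TXN, and lower by 1.21 for SOD2 and 2.56 for PRDX6 probe set 4, with no test. When each array was centred on its bright probe sets, those with a mean above log2 4, PRDX1 (1.95, adjusted p = 8.28e-06) and PRDX2 (1.25, adjusted p = 0.0233) passed in limma, PRDX5 and TXN did not, and PRDX6 probe set 4 was called lower (-1.55, adjusted p = 0.0013). In that fit 1.17% of all probe sets were called higher and 1.52% lower. The 95% intervals of that fit had nearly the same width for every member. They ran from 1.25 to 2.65 for PRDX1 and from -2.26 to -0.85 for PRDX6 probe set 4. The adjusted p-values of that fit therefore do not measure each probe set's own spread between arrays. A fit of the bright probe sets alone called PRDX1 and PRDX2 higher (adjusted p = 0.00462 and 0.00676), as it did 29.4% of those probe sets. With limma's array weights PRDX1, PRDX2 and PRDX5 were called higher, against 1.9% of all probe sets. Superovulated array 2 had a weight of 7.68 in that fit, against 1.52 and 0.574 for superovulated arrays 1 and 3. The synchronized arrays had weights of 0.211 to 1.68. The superovulated side of that fit thus rests largely on 1 array, the one where PRDX1, PRDX5 and TXN were highest.

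**Figure D4:**
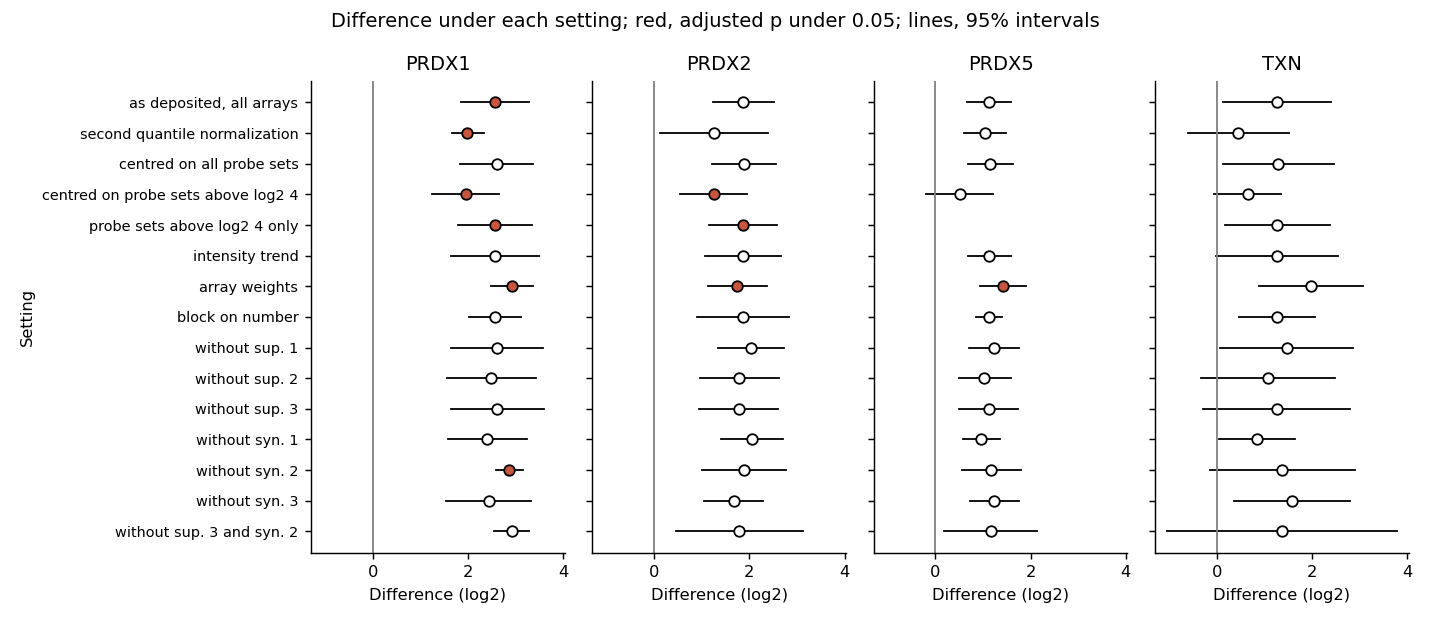
Difference (superovulated minus synchronized, log2) of PRDX1, PRDX2, PRDX5 and TXN under each setting, with 95% intervals; red points have an adjusted p under 0.05. All differences lie above 0, and the number of calls changes with the setting; PRDX5 is absent from the fit of probe sets above log2 4.

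Of 8 measured genes of 13 in the list for trophectoderm, the outer epithelium of the blastocyst, 2 were called. KRT18 rose by 3.89 and DAB2, which also marks primitive endoderm, by 2.21 (adjusted p = 0.041 and 0.0387 in limma), and the other 6 stayed under log2 4 on every array. Among these KRT8, TFAP2A, IFNT2 and PAG2 differed by -0.07 to -0.01, and ELF5 and KRT19 by 0.12 and 0.43. The list's summed signal, in which KRT18 and DAB2 made most of the difference, was 28.36 to 29.00 on the superovulated and 21.16 to 23.78 on the synchronized arrays. Of the inner cell mass list 3 of 8 genes were measured and 0 called, with summed signals of 10.58 to 11.38 and 8.42 to 9.16 that did not overlap. KLF4, its only gene with a mean above log2 4, measured 4.83, 5.53 and 4.94 against 4.08, 3.69 and 3.58 (difference 1.32, adjusted p = 0.15), and the pluripotency factor gene POU5F1 averaged 3.40 and 2.59, near background. The oviduct list (7 of 9 genes measured) summed to 21.04 to 25.50 and 19.24 to 23.63, with its defining gene OVGP1 at background, 2.20 and 2.23. The complement gene C3 was the 1 call in that list: it read 5.29, 5.95 and 5.44 against 2.78, 2.84 and 3.38 and rose by 2.56 (adjusted p = 0.0373), about as much as PRDX1. UCHL1, the list's other gene with a mean above log2 4, lay the other way. It read 2.56, 3.20 and 7.12 against 3.22, 7.85 and 5.31 (difference -1.17, limma adjusted p = 0.717). The GAPDH control at the 3′ end was 8.67 to 9.14 in the superovulated group and 7.20 to 8.35 in the synchronized group. The part of cell makeup, RNA quality and signal strength in the PRDX1 rise was not tested.

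The genes whose pattern over the 6 arrays was most like that of PRDX1, by Pearson r among 965 bright, named probe sets, were NDUFA12 of respiratory complex I (r = 0.9987), the RNA-binding protein gene HNRNPK (0.9964), the mitochondrial ribosomal protein genes MRPL22 (0.9937) and MRPS31 (0.9936), and BZW1 (0.9934). The likeness is a description that includes the group difference itself, and 28.2% of those probe sets had r above 0.9.

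None of the other redox genes, in 8 lists with 84 measured genes of 116, was called in either direction by limma, each gene read on its brightest probe set. At an unadjusted p under 0.05, 11 of the 84 were higher and 0 lower, against 4.56% and 2.09% of all probe sets. Their median difference was -0.03, close to -0.02 over all probe sets, and 71 of the 84 had a mean at or below log2 4.

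Among the 16 measured genes of the NRF2 axis and NADPH supply, 5 were higher at an unadjusted p under 0.05. The share of all probe sets was 4.56%, and none of the 16 passed after adjustment. All 5 were metabolic enzyme genes: TKT, TALDO1, IDH2, PGD and IDH1. Of the 16 differences 8 lay above 0, and their median was -0.01. From the NRF2 axis, NFE2L2, KEAP1, NQO1 and HMOX1, named after their values were seen, differed by 0.20, -0.11, -0.21 and -0.19, all near background. NADPH is the electron donor of thioredoxin reductase. TKT, the transketolase of the pentose phosphate pathway, measured 6.06, 6.71 and 6.14 in the superovulated group, against 3.45, 3.34 and 4.60 in the synchronized group. The groups did not overlap, and the difference was 2.51 (adjusted p = 0.113). TALDO1, the transaldolase of the same pathway, differed by 0.97 (adjusted p = 0.096), IDH2, the mitochondrial isocitrate dehydrogenase that forms NADPH, by 1.59 (adjusted p = 0.167), and PGD, the phosphogluconate dehydrogenase, by 0.24 (adjusted p = 0.338). TALDO1, IDH2 and PGD lay near background on most arrays, with all their synchronized values under log2 4, and the synchronized mean of TKT was 3.80, so the sizes of these differences are uncertain.

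Among the 19 measured partners of the thioredoxin system, 1 was higher at an unadjusted p under 0.05, a share near the 4.56% of all probe sets. This was TXNDC17, a small thioredoxin-like protein, at 3.87, 2.65 and 3.77 against 2.37, 2.44 and 2.38 (difference 1.03, adjusted p = 0.636). SESN1 and SESN2, stress-induced sestrins, differed by -0.09 and -0.26, and the spliceosomal TXNL4A by -0.14, all near background. On their other 2 probe sets SESN1 differed by -0.06 to 0.02 and SESN2 by -0.20 to 0.07. The 8 measured partners in superoxide and peroxide removal had none at an unadjusted p under 0.05. The glutathione peroxidase gene GPX2 differed by -0.71, CCS, the copper chaperone of SOD1, by 0.14, SOD3 by -0.03 and GPX3 by -0.01, with group means between 2.29 and 3.16.

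In the glutathione system (14 genes) GSTK1, a mitochondrial and peroxisomal transferase, averaged 4.69 ± 0.34 against 4.14 ± 0.16 with overlapping groups (difference 0.55, adjusted p = 0.636; -0.14 and -0.05 on its other 2 probe sets), and GCLC, MGST2 and MGST3 differed by -0.10 to -0.13. In oxidative folding of the endoplasmic reticulum (11 genes) the disulfide isomerase gene PDIA3 read 4.92, 5.74 and 5.23 against 4.54, 4.50 and 4.56. Its difference was 0.76 (limma adjusted p = 0.452). ERO1A, QSOX1 and VKORC1 differed by -0.09, -0.31 and 0.14, and the other probe set of ERO1A by 0.18. Of 5 thioredoxin clients and methionine repair genes, the ribonucleotide reductase gene RRM2 differed by 0.43, the DNA repair gene APEX1 by 0.47, RRM1 by 0.05 and MSRA by -0.05, none with a call. In selenoprotein synthesis (5 genes), which supplies thioredoxin reductase, SEPHS1, EEFSEC, PSTK and TRNAU1AP differed by 0.08, -0.35, -0.09 and -0.13. The other probe set of EEFSEC differed by -0.01 and that of TRNAU1AP by 0.22. Of 6 superoxide producers XDH, the xanthine dehydrogenase, read 4.75, 4.63 and 4.18 against 3.87, 3.81 and 3.69 (difference 0.73, adjusted p = 0.265; 0.08 on its other probe set), and NOX4, CYBA and NCF4 differed by -0.26, -0.14 and -0.01.

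**Figure D5:**
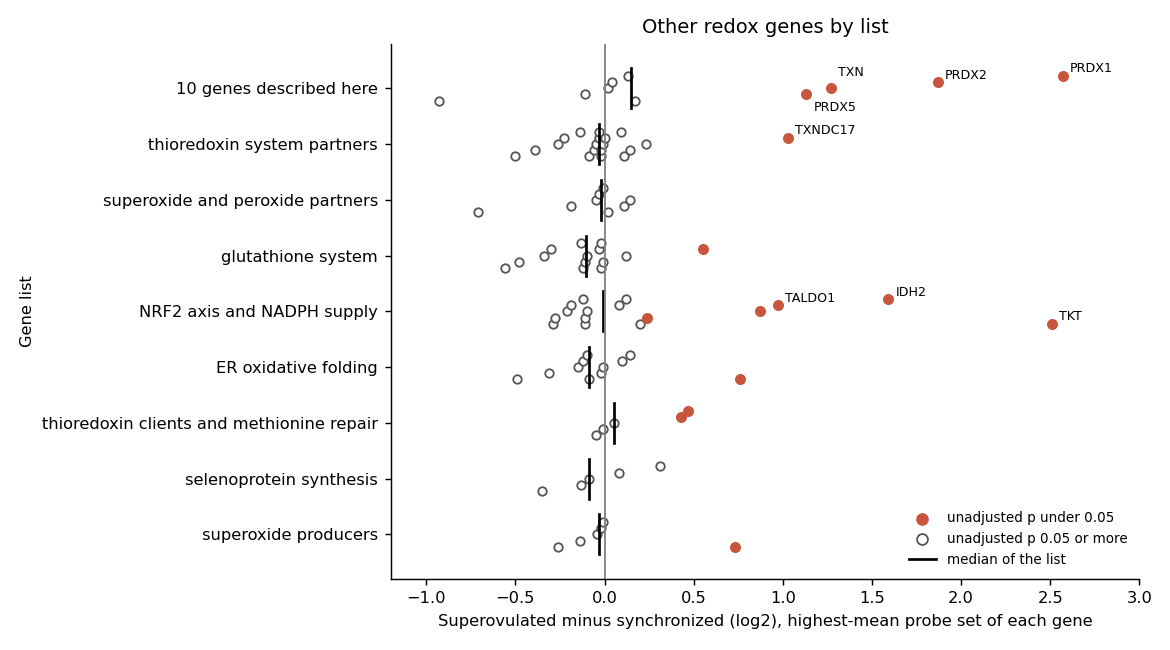
Difference between the groups (log2) of each measured gene, on its highest-mean probe set, for the 10 genes described here and 8 lists of other redox genes; red points have an unadjusted p under 0.05 and black bars are list medians. Red points lie above 0, led by PRDX1 and TKT, while the list medians lie between -0.10 and 0.15.

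Of the 13 list genes with a mean above log2 4, 5 had the array order of SOD2. These were GPX1, GSTA2, MAFG, SQSTM1 and FTH1, chosen after their values were seen. The order held in 13.8% of all probe sets with a mean above log2 4. The looser form held in the same 5 list genes and in 28.4% of those probe sets. FTH1, the ferritin heavy chain that stores iron, measured 8.67, 9.09 and 10.02 in the superovulated group, against 8.10, 10.65 and 9.39 in the synchronized group. SQSTM1, an autophagy receptor, read 4.45, 4.45 and 6.10, then 3.04, 6.91 and 4.81. Their differences between the groups were -0.12 and 0.08.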

How the data were processed

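The authors deposited log2 values, 1 per probe set and array, made with GCRMA per the submitters' processing notes. GCRMA corrects background by probe sequence, normalizes and summarizes probes; its version, and whether all 6 arrays were treated together, are not given in the sources used here. The values, 1.45 to 15.97, were used unscaled. Of 24128 probe sets 112 controls were set aside. Symbols came from the platform annotation held by GEO (13292 probe sets with 1 symbol, 86 with several, 10638 with none); by gene identifier 13263 matched the ARS-UCD2.0 gene table. The group test was that of limma 3.58.1 (R 4.3.3), fitted to all 24016 probe sets with group as its term, two-sided. It was tested on simulated data with independent noise for each probe set and array. Such data lack the shifts that many probe sets share on an array, so that test does not bear on the calls made here. The array number, 3 per group, limits the precision. Per list the text names the 4 genes of smallest p, and the 5 most like PRDX1. The members and lists were chosen with earlier results of these data known; ranks within arrays were added after the values were seen. Alternatives were normalization, centring, dim filter, variance trend, array weights, replicate block and arrays left out. Sequences were not analysed here.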

Additional observations from a re-analysis of the deposited data

How the results depend on the processing

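PRDX1, PRDX2 and TXN kept a positive difference under all 14 alternatives and PRDX5 under the 13 that gave it a value, but calls changed. PRDX1 ranged from 1.95 to 2.92 and passed in 5 of 14. It did not pass with centring on all probe sets (2.60, adjusted p = 0.0537), with an intensity trend (2.57, adjusted p = 0.0791) or without superovulated array 3 and synchronized array 2 (2.92, adjusted p = 0.108); leaving out single arrays gave 2.41 to 2.87. PRDX2 ranged from 1.25 (bright centring) to 2.05. PRDX5 ranged from 0.51 (bright centring) to 1.42 and TXN from 0.46 (second quantile normalization) to 1.99. These upper values of PRDX5 and TXN came with array weights, where superovulated array 2 had the largest weight. The labels do not say whether replicate numbers pair the arrays. Deviations of same-numbered arrays from their group means correlated at r = 0.542, -0.399 and -0.405. With 3 arrays per group such deviations constrain one another, so these values cannot decide the pairing. With the number as a replicate block PRDX1 was 2.57 (limma adjusted p = 0.14), and 0 members and 0 probe sets in all were called. The count of members called higher, 1, was 0 with centring on all probe sets, the trend, the block and both arrays left out, 2 with only the bright probe sets (mean above log2 4) or centring on them, 3 with array weights and 0 to 1 with single arrays left out; 1 (PRDX6 probe set 4) was called lower after bright centring. Over all probe sets 28 calls were made after a second quantile normalization, 50 with the trend, 515 with array weights, 647 after bright centring, 441 among bright probe sets alone, 26 to 137 without single arrays and 1 without both, in place of 172. Of the 84 list genes 1 was called higher after bright centring, among bright probe sets or with array weights (TKT each time), and 2 lower after bright centring (GPX2 and GSTA4); without single arrays 0 to 2 were higher. Bright centring moved the median of all probe sets to -0.65, because by construction it lowers every difference, of dim and bright probe sets alike, by the same amount. The calls of that fit, those of TKT, GPX2 and GSTA4 included, do not rest on each probe set's own spread between arrays. Under bright centring SOD2 was -0.58, PRDX3 probe set 2 -0.60, PRDX4 -0.49, PRDX6 probe set 1 -0.36 and PRDX6 probe set 2 -0.08, and TXNRD1 -0.46, all turned in sign and none called. Signs also turned, with no call, for SOD2 after a second quantile normalization (-0.22), without superovulated array 3 (-0.21) and without synchronized array 1 (-0.71); for PRDX3 probe set 2 after that normalization (-0.03) and without superovulated array 2 (-0.05); for PRDX3 probe set 1 (0.07) and SOD1 (0.04) without synchronized array 2; and for TXNRD1 without both arrays (-0.02). Leaving out single arrays gave -0.71 to 0.66 for SOD2, -0.57 to 0.07 for PRDX3 probe set 1, -0.05 to 0.07 for PRDX3 probe set 2, -1.65 to -0.12 for PRDX6 probe set 4, -0.26 to 0.04 for SOD1 and 0.04 to 0.27 for TXNRD1. The cause was not tested. Low signals limit SOD1, TXNRD1, PRDX3 and PRDX4.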
